A study of Mus musculus with 9 samples.

Results

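The genes described here encode core proteins of the spliceosome and their relatives: every protein-coding gene of the deposited count table whose mouse symbol begins with Snrp, with Sf3a or Sf3b and a digit, with Lsm and a digit, or with Prpf and a digit. Of 53715 rows, 50 carried such a symbol, 3 of them were pseudogenes, and 47 genes remained. Expression was compared between sorted thymocytes of C57BL/6 mice aged 6 to 8 weeks labelled WT, for which no Cre or floxed allele is given (3 libraries), and cells of the same sort from Srsf1fl/flLckcre/+ mice, called SRSF1KO (2 libraries). In the latter Srsf1, which encodes an SR protein that binds exons and recruits the splicing machinery, is floxed, and Cre is expressed from Lck, a gene of the T lineage. All were double-positive thymocytes, carrying CD4 and CD8, and were also sorted as positive for TCRβ, CD69 and CD24. The labels do not say whether the libraries came from separate animals, so a p-value reflects no more than the scatter among these 5 libraries, which may be technical. The 4 CLIP-seq samples of the series were not analysed here.

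Splicing is carried out by small nuclear ribonucleoproteins (snRNPs), each a small RNA with a set of proteins. The U1, U2, U4 and U5 RNAs each carry a ring of Sm proteins, and the U6 RNA carries a related ring, Lsm2 to Lsm8. U1 recognises the 5′ splice site and U2 the branch site, where the SF3a and SF3b complexes of U2 hold the branch site adenosine. The U4/U6.U5 tri-snRNP, in which several of the Prpf proteins lie, then joins and is rearranged into the active site. The naming rule also takes in Lsm proteins with other known tasks: Lsm1 of the cytoplasmic decapping complex, Lsm10 and Lsm11 of the U7 snRNP that processes histone mRNA, Lsm14a and Lsm14b of P-bodies, and Lsm12. It leaves out the genes named Snrnp, which are given further on as a separate list.

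Levels are given as CPM, counts relative to the TMM-scaled library total. The libraries held 36026006 to 38985285 counts, and the 47 genes together took 0.634% to 0.643% of the counts in WT and 0.599% and 0.629% in SRSF1KO replicates 1 and 2. CPM does not account for transcript length, so levels are compared between libraries and not between genes. The 10 genes with most counts took 6.77% to 8.27% of each WT library and 9.92% and 10.2% of the SRSF1KO libraries, a difference that moves with the groups. Markers of double-positive thymocytes summed to 7383 to 7951 CPM in WT and 7321 and 8732 CPM in SRSF1KO. Of markers of other cells, 6 B cell genes summed to 492.1 to 567.3 CPM in WT and 559.1 and 761.7 CPM in SRSF1KO, nearly all of it Ighm, with Pax5 at 0.31 CPM or less. The 8 macrophage and dendritic cell genes summed to 102.0 to 129.1 and 117.2 and 139.4 CPM. The 6 thymic epithelial genes summed to 14.3 to 14.5 and 13.8 and 25.8 CPM, with Foxn1 at 0.33 CPM or less. The 4 NK cell genes summed to at most 4.23 CPM. Of these, Eomes was at 0.45 CPM in WT replicate 1 and at 0 in WT replicates 2 and 3 and both SRSF1KO libraries. Both sums thus came mostly from other genes of their lists. The 4 erythroid genes summed to 2.29 to 11.4 CPM in WT and to 83.7 and 18.5 CPM in SRSF1KO replicates 1 and 2. No marker that could be tested passed with edgeR. Their part, and that of the 10 leading genes, in the values below was not tested, and in bulk RNA fewer cells of a type and less RNA per cell cannot be told apart.

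Srsf1 itself stood at 96.9, 122.7 and 103.1 CPM in the WT libraries and at 42.6 and 30.9 CPM in the SRSF1KO libraries, and fell by 1.55 ± 0.19 on the log2 scale (SE; adjusted p = 0.0483 in edgeR's quasi-likelihood test). The call was lost when any 1 of the 5 libraries was left out (log2 fold change −1.80 to −1.32). With all 5 libraries kept, edgeR also lost it under scaling by DESeq2 size factors (adjusted p = 0.0515). The same held with the replicate number as a block (0.314).

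No member passed the test over all genes, while genes of the Sm ring and most of the Lsm2 to Lsm8 ring stood somewhat lower in SRSF1KO and the SF3b and Prpf genes pointed both ways. Snrpa1, a leucine-rich repeat protein of the U2 snRNP, showed the lowest ratio among well-expressed members: 83.7 ± 4.03 CPM in WT (SD, n = 3) against 49.0 ± 1.002 CPM in SRSF1KO (SD, n = 2). Sf3b3, a large scaffold subunit of SF3b, stood at 380.3 ± 29.2 and 267.0 ± 27.4 CPM. In the other direction Sf3b1, the SF3b subunit that contacts the branch site, stood at 1099 ± 28.5 and 1268 ± 63.6 CPM.

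Of the 47 members, 46 passed the filter on low counts and were tested; Snrpf did not pass. With edgeR 0 of 46 had an adjusted p under 0.05, against 0.265% of all 17351 genes tested (37 lower, 0.213%, and 9 higher, 0.0519%). At an unadjusted p under 0.05, 10 members were lower and 2 higher, 21.7% and 4.35% of those tested, against 8.45% and 5.90% of all genes. In 16 members both SRSF1KO libraries lay below all WT libraries (34.8%, against 17.8% of all genes), and in 4 both lay above (8.70%, against 15.2%). Limma-voom called 0 members, against 0.542% of all genes, and had 12 at an unadjusted p under 0.05, 26.1% against 14.9% of all genes. DESeq2 called 2 lower, Snrpa1 and Sf3b3, and 0 higher, against 3.65% and 2.21% of all genes. The same 2 were called lower by edgeR when only genes averaging at least 5 CPM were fitted, where 2.35% of genes were, and without a filter on low counts, where 1.13% were. The log2 fold change was negative in 31 of 46 members, 67.4% against 50.6% of all genes. Its median was −0.13 over the 46 members and −0.01 over all genes tested. It was −0.090 without WT replicate 2 and −0.16 without WT replicate 1. The standard error of a log2 fold change was 0.136 at the median over the 44 members with a WT mean of at least 5 CPM.

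**Figure D1:**
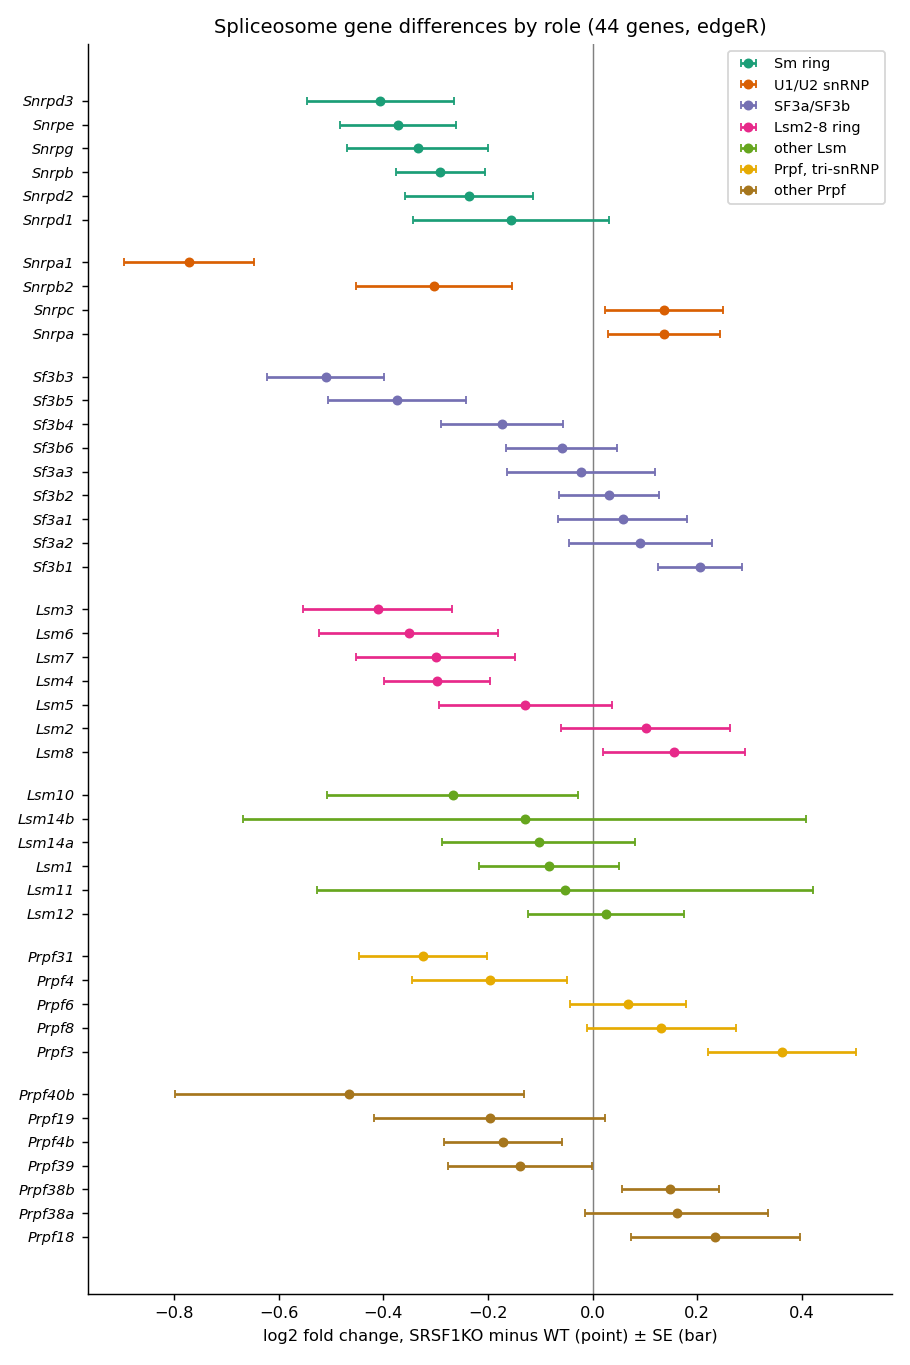
Log2 fold change of SRSF1KO against WT (points) with its SE (bars) for 44 members, grouped by role and ordered within each group. Snrpn, at 0 counts in 3 of 5 libraries, is not drawn; the Sm ring genes shown all lie left of 0, Snrpa1 lies farthest left at −0.77 and Prpf3 farthest right at 0.36.

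The 150 bases before the most upstream start in the RefSeq promoter table are shown for the members with the smallest p in each direction that have an entry there (GRCm38.p6), 4 lower and 2 higher, so that the regions upstream of genes that stood apart in opposite directions can be set side by side. The windows are chr7:66060186-66060335 (plus strand) for Snrpa1, chr8:110846804-110846953 (minus) for Sf3b3, chr1:133610281-133610430 (minus) for Snrpe, chr10:75517892-75518041 (plus) for Snrpd3, chr3:95855886-95856035 (minus) for Prpf3 and chr1:55027479-55027628 (minus) for Sf3b1. Each is written 5′ to 3′ on the strand of the gene. Capitals mark any match, on either strand, to 6 motifs that are often found in promoters, none of which contains another. The GC box was searched as GGGCGG and is a site for Sp-family factors. The TATA box, where the TATA-binding protein sits, was searched as TATAAA. The core of sites for ETS-family factors was searched as CCGGAAG, and the E-box, a site for basic helix-loop-helix factors, as CACGTG. The CCAAT box was searched by the letters of its name, and the NRF1 motif is given by name alone.
Snrpa1: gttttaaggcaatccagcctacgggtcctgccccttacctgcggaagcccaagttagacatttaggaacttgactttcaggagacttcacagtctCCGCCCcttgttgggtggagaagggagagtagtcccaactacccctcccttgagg
Sf3b3: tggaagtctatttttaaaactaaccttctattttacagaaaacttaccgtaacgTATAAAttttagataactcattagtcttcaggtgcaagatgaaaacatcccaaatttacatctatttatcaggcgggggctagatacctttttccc
Snrpe: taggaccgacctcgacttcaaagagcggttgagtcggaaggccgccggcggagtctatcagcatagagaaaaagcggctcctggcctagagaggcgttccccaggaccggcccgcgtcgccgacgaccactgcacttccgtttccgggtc
Snrpd3: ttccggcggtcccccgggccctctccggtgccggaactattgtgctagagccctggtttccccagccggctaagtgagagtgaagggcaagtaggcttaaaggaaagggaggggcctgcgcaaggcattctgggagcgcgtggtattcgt
Prpf3: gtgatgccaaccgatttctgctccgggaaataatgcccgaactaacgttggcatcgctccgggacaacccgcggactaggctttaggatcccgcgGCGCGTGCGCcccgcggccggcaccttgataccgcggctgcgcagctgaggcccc
Sf3b1: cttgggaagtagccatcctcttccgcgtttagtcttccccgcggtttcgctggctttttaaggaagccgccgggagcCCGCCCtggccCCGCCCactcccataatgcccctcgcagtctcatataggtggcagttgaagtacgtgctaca

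The windows of the 4 lower genes held no motif in common: a GC box before Snrpa1, a TATAAA match before Sf3b3 and no match before Snrpe or Snrpd3. The match before Sf3b3 begins 96 bases before the start, in a window with a GC content of 33.3%. The window of Sf3b3 lies within the annotated coordinates of the neighbouring gene Cog4. The window of Prpf3 held an NRF1 motif and that of Sf3b1 2 GC boxes. Over the 37 members with a sequence, 1 window per gene at its most upstream start, 27.0% held the ETS core, against 5.69% of 27025 promoters of the same length. The NRF1 motif was in 21.6% against 3.23%, the GC box in 48.6% against 29.0%, the CCAAT box in 32.4% against 25.3%, the TATA box in 2.70% against 8.08% and the E-box in 5.41% against 4.28%. The median GC content was 60.7% in the members' windows and 54.0% in all. By role, the ETS core was in 5 of 7 windows of SF3a and SF3b genes, 2 of 4 of U1 and U2 genes, 2 of 6 of the other Prpf genes, 1 of 5 of Sm ring genes, and in none of the other roles: 0 of 6 in the Lsm2 to Lsm8 ring, 0 of 5 in the tri-snRNP Prpf genes and 0 of 4 in the Lsm genes outside the U6 ring. A match describes the letters and shows no bound factor.

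The Sm ring is built from 7 proteins, SmB, SmD1, SmD2, SmD3, SmE, SmF and SmG, with SmN replacing SmB mainly in neurons. All 6 well-expressed Sm genes lay below 0 on the log2 scale, against 50.6% of all genes. Their median was −0.31 (−0.33 to −0.27 over the 13 alternative settings). In 5 of them the SRSF1KO libraries lay below every WT library, as they did in 17.8% of all genes. Snrpb, which encodes SmB, stood at 427.9, 429.1 and 409.4 CPM in the WT libraries, in the order of their replicate numbers, against 338.3 and 351.7 CPM in the SRSF1KO libraries. Its groups were tight and did not overlap, with a log2 fold change of −0.29 ± 0.09 (SE; edgeR adjusted p = 0.1997). Snrpe (SmE) stood at 130.5, 147.1 and 128.4 CPM against 102.3 and 106.8 CPM, a log2 fold change of −0.37 ± 0.11 (edgeR adjusted p = 0.208).

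Snrpd3 (SmD3) stood at 80.4, 101.7 and 88.0 CPM in WT and 70.4 and 65.5 CPM in SRSF1KO (−0.41 ± 0.14, edgeR adjusted p = 0.263). Snrpg (SmG) stood at 81.9, 102.6 and 90.0 CPM against 72.3 and 72.9 CPM (−0.33 ± 0.13, edgeR adjusted p = 0.325). Both were highest in WT replicate 2, and in both the groups did not overlap. Snrpd2 (SmD2), at −0.24 ± 0.12, did not overlap either, at 88.3 to 96.0 CPM in WT and 72.5 and 83.1 CPM in SRSF1KO, though WT replicate 2 was its lowest WT library. Snrpd1 (SmD1) was the exception: WT replicate 2 stood at 83.7 CPM, while WT replicates 1 and 3, at 57.8 and 59.8 CPM, overlapped SRSF1KO at 61.8 and 58.7 CPM. Its log2 fold change was −0.16 ± 0.19, and 0.03 at the highest over the alternative settings.

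Both remaining Sm genes were hardly counted. Snrpf, which encodes SmF, had 1, 9 and 5 counts in WT and 2 and 9 in SRSF1KO, although SmF is a part of every Sm ring, and the 6 well-expressed ring genes had WT means of at least 67.1 CPM. Its coordinates overlap the protein-coding gene Ccdc38 and a noncoding RNA, and why the row is low was not tested. Snrpn (SmN) had 11, 13 and 0 counts in WT and 0 in both SRSF1KO libraries. WT replicate 3 was thus at 0 as well, so the groups overlap and no fold is given. With Snrpn at the bound that a floor of 3 counts over the SRSF1KO group sets, which covers counting error only, the median over members was −0.13.

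**Figure D2:**
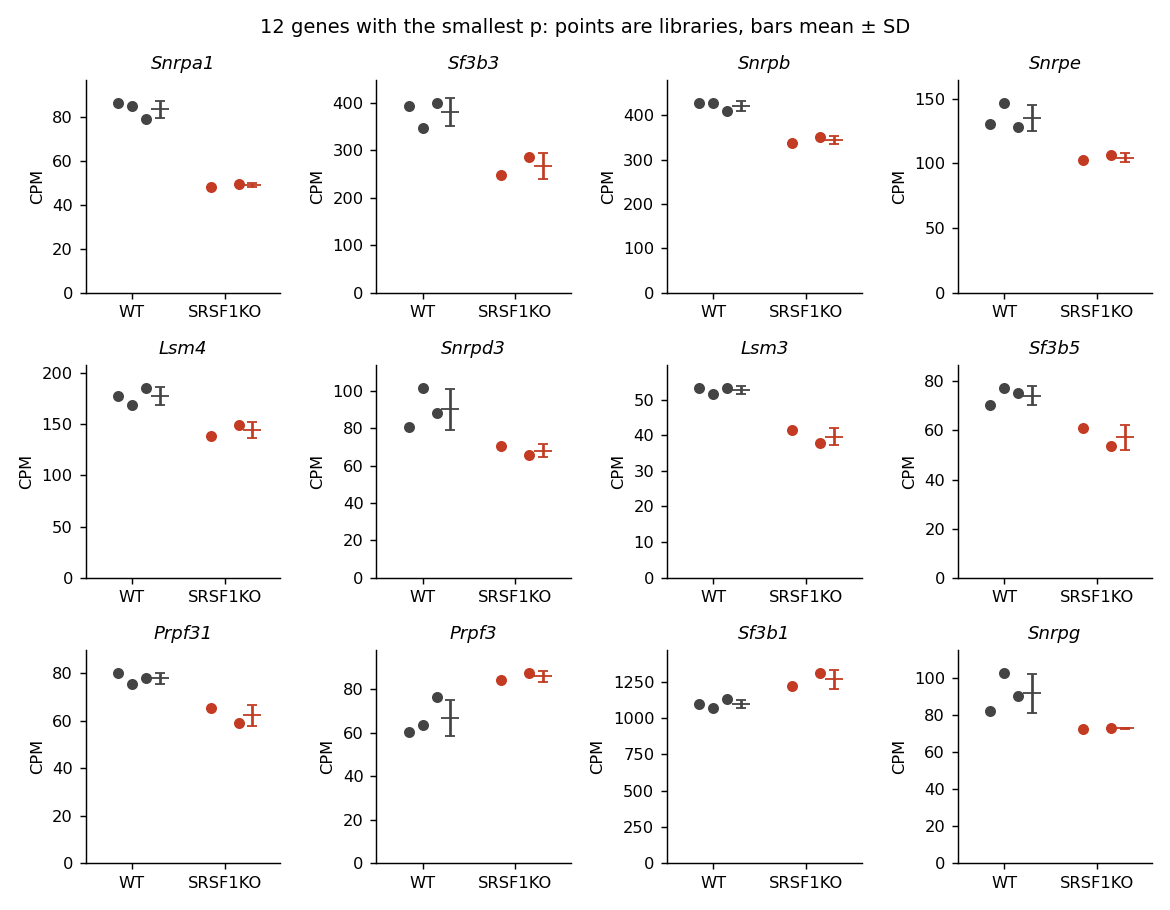
CPM in each library (points; WT grey, SRSF1KO red) with mean ± SD (bars) for the 12 members with the smallest p, each panel on its own linear axis from 0. In every panel the libraries of the groups do not overlap, which choosing genes by the smallest p favours. Of the 12, 10 genes are lower in SRSF1KO and 2, Prpf3 and Sf3b1, are higher. Over all genes tested, 17.8% lay lower and 15.2% higher without overlap.

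Genes of proteins particular to U1 and U2 had log2 fold changes of either sign. Snrpa1 (chromosome 7, 66060336 to 66074587, GRCm38) encodes a protein that binds the U2 RNA together with the product of Snrpb2. It stood at 86.8, 85.1 and 79.1 CPM in WT and at 48.3 and 49.7 CPM in SRSF1KO, 1.71-fold higher in WT. The libraries were close within each group and far apart between them. The log2 fold change was −0.77 ± 0.12 (SE; edgeR adjusted p = 0.0642). Snrpa1 passed with DESeq2 (adjusted p = 2.15e-05), with edgeR on genes of at least 5 CPM (0.0193) and with edgeR without a filter on low counts (0.00739), and did not pass under the other 10 settings. Leaving out any 1 library left the log2 fold change between −0.80 and −0.73 and the edgeR adjusted p between 0.111 and 0.235.

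Snrpb2, the partner, stood at 74.9 to 88.7 CPM in WT and at 72.0 and 58.3 CPM in SRSF1KO (−0.30 ± 0.15), again without overlap. Its log2 fold change leaned on SRSF1KO replicate 2 and was −0.14 without that library and −0.46 without SRSF1KO replicate 1. The U1 genes of this role group, Snrpa and Snrpc, had positive values with overlapping groups. Prpf40b, a gene of another role group whose protein is associated with U1, was at −0.47, also with overlapping groups. Snrpa, which binds a stem-loop of the U1 RNA, stood at 142.9, 135.2 and 150.4 CPM in WT and 147.5 and 166.5 CPM in SRSF1KO, and its groups overlapped (0.14 ± 0.11, edgeR adjusted p = 0.641). Snrpc, which steadies U1 at the 5′ splice site, stood at 0.14 ± 0.11. Snrpa overlaps the gene BC024978, so its reads are less certain.

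Genes of SF3a and SF3b, the U2 complexes that clamp the branch site, had log2 fold changes of either sign. None passed the edgeR test over all genes, and the genes were not tested against each other. The 3 SF3a genes lay between −0.02 and 0.09, all with overlapping groups. Groups lay apart in only 17.8% (lower) and 15.2% (higher) of all genes. Among the 6 SF3b genes Sf3b3 and Sf3b5 stood lower, Sf3b1 stood higher, and Sf3b2, Sf3b4 and Sf3b6 lay between −0.17 and 0.03. Sf3b3 and Sf3b5 are also known as subunits of the SAGA coactivator, a chromatin-modifying complex.

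Sf3b3 (chromosome 8, 110810491 to 110846806, GRCm38) stood at 393.1, 346.8 and 400.8 CPM in WT and 247.6 and 286.3 CPM in SRSF1KO, 1.42-fold higher in WT. The highest SRSF1KO library lay well below the lowest WT library. The log2 fold change was −0.51 ± 0.11 (SE; edgeR adjusted p = 0.127), with an adjusted p of 0.00411 in DESeq2, 0.0398 at a mean of at least 5 CPM and 0.0243 without the filter. Its start overlaps Cog4, whose own log2 fold change was −0.01. Sf3b5 stood at 70.1, 77.4 and 75.0 CPM against 60.8 and 53.7 CPM (−0.37 ± 0.13, edgeR adjusted p = 0.268).

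Sf3b1 stood at 1096, 1072 and 1129 CPM in WT and 1223 and 1313 CPM in SRSF1KO. Both SRSF1KO libraries lay above the WT range, by a small factor (1.15-fold). The log2 fold change was 0.21 ± 0.08 and did not pass (edgeR adjusted p = 0.310). It was positive under all 13 alternative settings, from 0.17 to 0.26. Sf3b4 was at 162.9 to 185.9 CPM in WT and 140.4 and 162.7 CPM in SRSF1KO, groups that just failed to overlap.

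**Figure D3:**
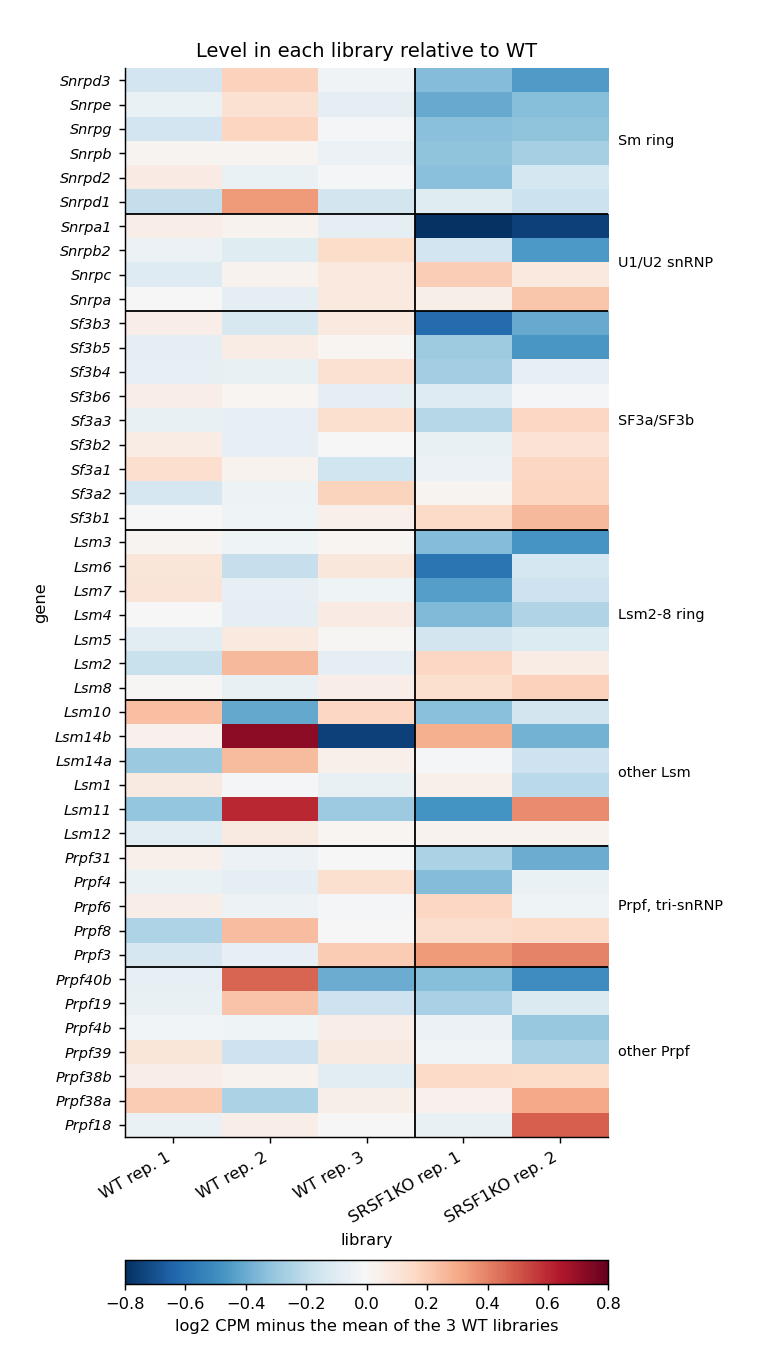
Log2 CPM of 44 members in each of the 5 libraries, minus the mean of the WT libraries, with blue below and red above it; rows are grouped by role. Snrpa1 is dark blue in both SRSF1KO columns, while Lsm6, Lsm11 and Prpf18 differ between the SRSF1KO libraries.

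The Lsm2 to Lsm8 ring, which binds the end of U6 RNA, had 5 of 7 genes below 0, against 50.6% of all genes. Its median was −0.30 (−0.33 to −0.15 over the alternative settings). Lsm3 stood at 53.3, 51.4 and 53.1 CPM in WT and 41.3 and 37.9 CPM in SRSF1KO (−0.41 ± 0.14, edgeR adjusted p = 0.264). Lsm4 stood at 177.7, 168.1 and 185.4 CPM against 138.6 and 149.4 CPM (−0.30 ± 0.10, edgeR adjusted p = 0.256). In both genes the groups were separate. In Lsm6 and Lsm7 the SRSF1KO libraries differed: SRSF1KO replicate 1 stood at 57.1 and 44.1 CPM, while replicate 2, at 77.5 and 53.5 CPM, lay within the WT range for Lsm6 and just below it for Lsm7. Lsm5 was at −0.13 ± 0.17.

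Lsm8, the subunit that makes this ring nuclear and specific to U6, was on the other side, at 49.3, 46.9 and 50.7 CPM in WT and 53.4 and 55.7 CPM in SRSF1KO (0.16 ± 0.14, edgeR adjusted p = 0.683). Lsm2 was at 0.10 with overlapping groups. The cytoplasmic ring shares Lsm2 to Lsm7 and holds Lsm1 in place of Lsm8, and Lsm1 stood at 73.1 ± 3.37 and 69.0 ± 8.57 CPM.

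**Figure D4:**
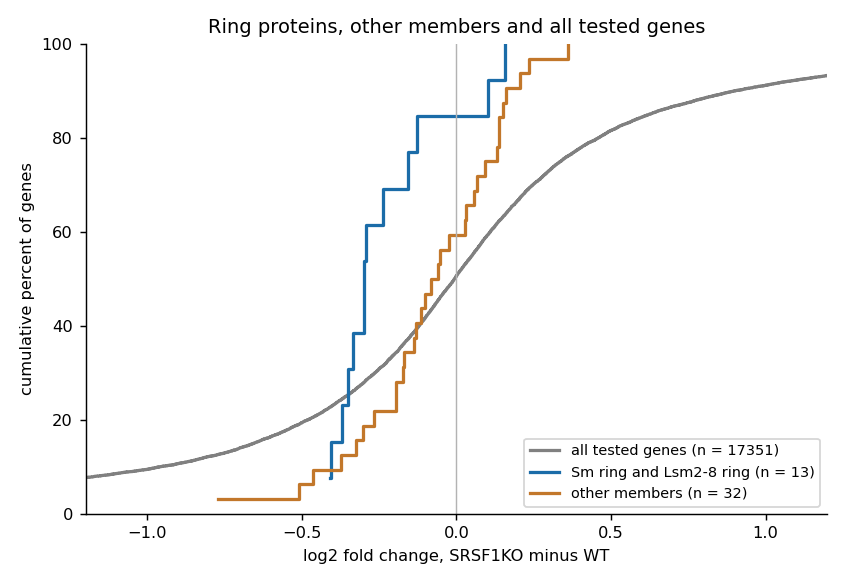
Cumulative percent of genes against log2 fold change for the 13 well-expressed genes of the Sm and Lsm2 to Lsm8 rings, the 32 other members and all 17351 genes tested. The ring genes, a set joined after their values were seen, have a median of −0.30 and the other members one of −0.07.

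In each of the 6 Lsm genes outside the U6 ring the groups overlapped. Over all genes, 17.8% lay lower and 15.2% higher without overlap. Lsm10 of the U7 snRNP stood at 37.5, 23.8 and 35.6 CPM in WT and 25.1 and 28.6 CPM in SRSF1KO, with WT replicate 2 below both SRSF1KO libraries. Lsm12 stood at 39.4, 44.0 and 42.4 CPM against 42.7 CPM in both SRSF1KO libraries. Lsm11 (3.66 to 7.80 CPM) and Lsm14b (2.34 to 6.51 CPM) were low and varied within WT by 39.3% and 48.9% (coefficient of variation), with log2 fold changes of −0.05 ± 0.47 and −0.13 ± 0.54. Lsm14a was at −0.10 ± 0.18.

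Among the Prpf genes of the tri-snRNP, Prpf31 and Prpf3 stood on opposite sides. Prpf31, a tri-snRNP protein, stood at 80.2, 75.5 and 78.2 CPM in WT and 65.4 and 59.1 CPM in SRSF1KO (−0.32 ± 0.12, edgeR adjusted p = 0.297). Prpf3, a U4/U6 protein that works with Prpf4, stood at 60.6, 63.6 and 76.5 CPM against 84.3 and 87.7 CPM (0.36 ± 0.14, edgeR adjusted p = 0.309). In neither gene did the groups overlap. Prpf4 stood at −0.20 ± 0.15. Prpf8, the U5 protein at the heart of the active site, ranged from 358.0 to 504.4 CPM in WT and stood at 468.5 and 472.4 CPM in SRSF1KO, within that range. Prpf6, a bridge between U5 and U4/U6, was at 0.07 ± 0.11.

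The remaining Prpf genes lay between −0.47 and 0.23, and none reached an unadjusted p of 0.05. Prpf40b, which encodes a protein associated with U1, stood at 11.3, 16.4 and 8.98 CPM in WT and 9.32 and 8.37 CPM in SRSF1KO, and its WT mean leaned on replicate 2. Prpf18, a factor of the second catalytic step, stood at 106.2, 114.1 and 109.8 CPM in WT and at 105.6 and 153.5 CPM in SRSF1KO. Only replicate 2 stood out, and the sign of Prpf18 turned between settings (−0.04 to 0.48). Prpf38b, a relative of the B complex protein Prpf38a, was tighter, at 205.9 to 226.1 CPM in WT and 242.4 and 241.2 CPM in SRSF1KO (0.15 ± 0.09, edgeR adjusted p = 0.532). The kinase gene Prpf4b (−0.17), Prpf19 of the complex named for it (−0.20), Prpf39 (−0.14) and Prpf38a (0.16) had standard errors of 0.11 to 0.22; of these 4 genes the groups did not overlap in Prpf4b. Fkbp3, which overlaps Prpf39, stood at −0.69 (edgeR adjusted p = 0.0858), so reads of Prpf39 are less certain.

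Sex-linked transcripts split the libraries across the groups, with WT replicates 1 and 3 and SRSF1KO replicate 2 on one side and WT replicate 2 and SRSF1KO replicate 1 on the other. Within the first set the log2 ratio of SRSF1KO to WT was −0.74 for Snrpa1, −0.47 for Sf3b3, −0.25 for Snrpb and 0.24 for Sf3b1. Within the second, with 1 library each, it was −0.82, −0.49, −0.34 and 0.19. Snrpe, Snrpd3 and Snrpg stood at −0.28, −0.36 and −0.24 in the first set and at −0.52, −0.53 and −0.51 in the second, the set that holds WT replicate 2. Snrpd1 stood at −0.003 in the first and −0.44 in the second. Snrpb2 went the other way, at −0.51 in the first and −0.06 in the second.

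**Figure D5:**
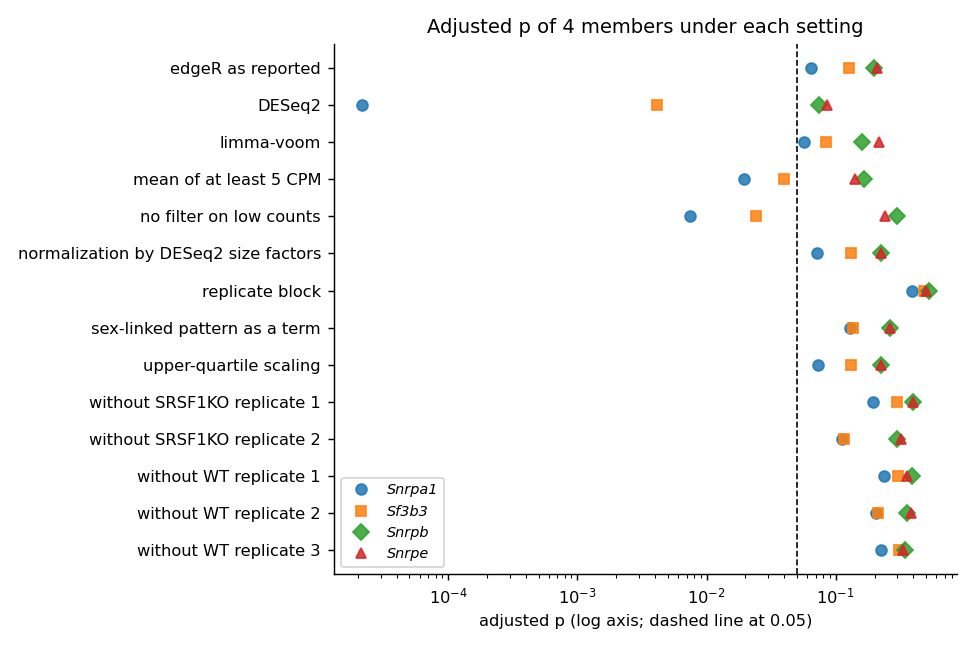
Adjusted p (log axis) of Snrpa1, Sf3b3, Snrpb and Snrpe under the reported edgeR test and 13 alternative settings, with a dashed line at 0.05. Snrpa1 and Sf3b3 lie left of the line in 3 settings, while Snrpb and Snrpe lie right of it throughout.

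Other genes of the pathway are given from lists by function. Over all genes, 0.213% were called lower by edgeR and 3.65% by DESeq2. At an unadjusted p under 0.05, 5.90% were higher and 8.45% lower. In the list of U2 recruitment and branch site factors 1 of 13 genes passed and was lower, Dnajc8, which encodes a J-domain protein found with U2: it stood at 211.4, 197.5 and 226.2 CPM in WT and fell to 121.3 and 103.9 CPM (−0.91 ± 0.12, edgeR adjusted p = 0.0483). The call was lost when any 1 of the 5 libraries was left out (log2 fold change −1.03 to −0.78). With all 5 libraries kept, edgeR also lost it under scaling by DESeq2 size factors (adjusted p = 0.0515). The same held with the replicate number as a block (0.314) and with the pattern of sex-linked transcripts as a term (0.105). The list's median was −0.01. None passed among 7 Snrnp genes (median −0.06; 1 higher and 0 lower at an unadjusted p under 0.05), where the U5 helicase gene Snrnp200 stood at 231.4 to 266.3 CPM in WT and 306.0 and 287.0 CPM in SRSF1KO (0.24 ± 0.10) and Snrnp25 was at −0.22. None passed among 18 genes of snRNP assembly and import (median 0.00; 0 higher and 1 lower unadjusted), where Gemin7 of the SMN complex, which loads Sm rings, stood at 72.8 to 75.7 and 59.8 and 60.9 CPM (−0.30 ± 0.12). Strap of the same complex was at −0.19. DESeq2 and limma-voom called Dnajc8 lower and no gene of the Snrnp and assembly lists.

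Of 22 genes of the Prp19 complex and catalytic step 0 passed (median 0.01; 2 higher and 0 lower unadjusted), with Cwc22 at 0.45 and Cwc27 at 0.51. Of 11 spliceosomal helicases and U5 partners 0 passed (median 0.04; 0 higher and 1 lower unadjusted), with Ddx41 at −0.45 and Dhx16 at 0.28. Of 10 minor spliceosome genes 0 passed (median −0.12; none unadjusted), with Zcrb1 at −0.33 and Snrnp25 at −0.22. DESeq2 and limma-voom called no gene of these 3 lists. The 9 decapping partners of the Lsm1 to Lsm7 ring had a median of 0.16 with 0 past the edgeR test (1 higher and 1 lower unadjusted). Dcp1b, a decapping cofactor, stood at −0.84 ± 0.24 and was called lower by DESeq2 (adjusted p = 0.0356), while limma-voom called 0 of the 9. The exonuclease gene Xrn1 stood at 0.41 ± 0.13.

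Among 14 proliferation genes the median was 0.21, with 0 past the edgeR test. At an unadjusted p under 0.05, 3 were higher and 3 lower, where 5.90% and 8.45% of all genes were. DESeq2 called 3 higher, where it called 2.21% of all genes higher, and limma-voom called 0. Ccnb1 stood at 64.6 to 69.2 CPM in WT and 122.0 and 103.0 CPM in SRSF1KO, and Top2a at 240.5 to 293.0 and 373.6 and 353.7 CPM. Cytosolic ribosomal protein genes also stood lower: of 76 tested, 74 had a negative log2 fold change, 65 were lower and 0 higher at an unadjusted p under 0.05, and 67 lay lower without overlap, where 8.45% and 17.8% of all genes were lower by these rules. Of the 76, edgeR called 5 lower, limma-voom 10 and DESeq2 41, and none called any higher. Over all 17351 genes, edgeR called 0.213% lower, limma-voom 71 genes and DESeq2 3.65%. Relative to the WT mean, the median ribosomal protein gene stood at −0.40 and −0.42 in SRSF1KO replicates 1 and 2, beside −0.34 and −0.29 for the Sm ring and −0.35 and −0.14 for the Lsm2 to Lsm8 ring. In WT replicates 1, 2 and 3 these medians were −0.16, 0.12 and 0.04 for ribosomal proteins, −0.10, 0.15 and −0.03 for the Sm ring and 0.01, −0.06 and 0.01 for the Lsm2 to Lsm8 ring. The part of these genes in the ring values was not tested.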

How the data were processed

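RNA-seq libraries of sorted thymocytes from 3 WT and 2 SRSF1KO samples were used, with groups taken from the labels' titles. Libraries followed Smart-seq2, per the labels. The deposited table holds unnormalised read counts for each gene. The submitters' processing notes name HTSeq 0.6.1, DESeq2 1.20.0, Bowtie2 2.1.0 and the build mm10, without roles. Which tool aligned these reads, the annotation release and the strand setting are not stated there. Reads that overlapping genes or close copies share may thus be split between them, and 7 members overlap another protein-coding gene in RefSeq. Of 53715 row IDs, 53620 matched a symbol.

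Every gene that passed the filter was fitted in edgeR 4.0.16 under R 4.3.3 by quasi-likelihood (TMM, filterByExpr, robust fit, group as the only term), with Benjamini-Hochberg adjustment over 17351 genes and a threshold of 0.05. Tests were two-sided, and the script was tested on simulated counts. The common biological coefficient of variation was 0.494. The SE of an edgeR log2 fold change was its absolute value divided by the square root of the quasi-likelihood F statistic. Log2 ratios for single libraries used a prior count of 2. The alternatives were DESeq2 1.42.0, limma-voom (limma 3.58.1), 2 other scalings, 2 other filters, the replicate number as a block, the pattern of sex-linked transcripts as a term, and omission of each library. A lone SRSF1KO library took its spread from the WT group.

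The members, lists and alternatives were chosen with earlier results of these data known. Every library's value is given for the 12 members with the smallest p and for the highest and lowest fold change in each role group; other lists give their called genes or the 2 with the smallest p, except that ribosomal protein genes, taken by symbol, are given as counts and medians. Other members and the joined set of ring genes were named after their values were seen. A member and some markers are counted with their groups, but their own values are not reported here.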

Additional observations from a re-analysis of the deposited data

How the results depend on the processing

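Of the 46 members tested, 35 kept the sign of their log2 fold change under every alternative that could test them, and the 11 others had a log2 fold change of at most 0.235 in size in the reported test. Counts of called members moved under 3 alternatives: DESeq2, a mean of at least 5 CPM and no filter on low counts each called 2 lower, Snrpa1 (log2 fold change −0.75, −0.75 and −0.77) and Sf3b3 (−0.49, −0.49 and −0.51), where 0 were called as reported. No alternative called a member higher. The median over members was −0.11 at a mean of at least 5 CPM, −0.11 with upper-quartile scaling, and −0.16 to −0.090 with 1 library left out. No cause of these differences was tested.

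Over all genes, against 37 lower and 9 higher, DESeq2 called 633 and 383, limma-voom 71 and 23, a mean of at least 5 CPM 233 and 143, no filter 346 and 198, DESeq2 size factors 7 and 3, and the sex-linked term 5 and 0. With 1 library left out 0 to 67 genes were lower and 0 to 21 higher. With the replicate block, 0 genes were called in either direction (1640 at an unadjusted p under 0.05), among them 0 members (4 unadjusted). Deviations of same-numbered libraries from their group means had correlations of −0.02 and 0.03 for replicates 1 and 2. The deviations of the 2 SRSF1KO libraries mirror each other, so this check cannot decide whether the numbers pair the samples. The labels do not say that they do, and the reported test does not pair them. With 5 libraries, members at a few CPM (Lsm11, Lsm14b) could not be resolved.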
